A study of Mus musculus with 16 samples.

Results

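The interferon-stimulated genes described here are a list of 38 mouse genes whose RNA was followed in the liver with and without the glucocorticoid receptor and with and without dexamethasone. A member was found on the array by its gene name or, where the array carries an older name, by its RefSeq accession, and its probe with the highest mean signal over the 16 arrays stood for it. Of the 38 members, 37 had such a probe and Xaf1 had none matched, and all 37 were among the 18462 genes tested. Irf9, Dhx58, Gbp3 and Gbp6 stand on the array under the older names Isgf3g, D11Lgp2e, Gbp4 and Mpa2l. The rule used no measured difference between groups, but the list was chosen with earlier results of these arrays known.

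Liver RNA of male C57BL/6 mice aged 3 months was labelled with Cy3 and hybridised to 1-colour Agilent whole mouse genome arrays, 4 arrays in each of 4 groups. The groups were GR knockout given dexamethasone, GR knockout without treatment, wild type given dexamethasone and wild type without treatment. Nr3c1 encodes the glucocorticoid receptor (GR), and the protocol describes the knockout as one of the liver, so cells of other types in the tissue may keep the receptor. Dexamethasone is a synthetic glucocorticoid, for which no dose, route or duration is stated in these sources, and neither is a Cre driver or which part of Nr3c1 was removed. Untreated animals are so called after the sample sources, whereas the protocol speaks of a vehicle and the titles of all knockout samples, treated ones included, carry the letters PBS. Whether the replicates came from separate mice is not spelled out in the labels, so the p-values measure the spread between these samples.

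Interferons are cytokines released on infection, and type I interferon signals through its receptor to the kinases JAK1 and TYK2, which phosphorylate STAT proteins, STAT2 among them. Together with IRF9 these form a complex that binds the interferon-stimulated response element and switches on the genes described here, while IRF1 acts on the subset induced by interferon gamma. Hepatocytes and Kupffer cells both respond to interferon, and glucocorticoids are known to restrain interferon-driven transcription in macrophages.

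Nr3c1 checked the genotype: its log2 level lay between -0.04 and 0.52 on the dexamethasone-treated knockout arrays and between 0.31 and 0.62 on the untreated ones, against 1.99 to 2.33 on the treated and 2.19 to 2.59 on the untreated wild-type arrays. Levels throughout are log2 processed signals relative to the 75th percentile of the same array, which is 0. That percentile was a signal of 296 on untreated knockout array 1 and 384 on untreated wild-type array 4, and between 503 and 663 on the others. The 4 arrays of a group shared a slide of their own, so in every comparison slide and group cannot be told apart. Of the 6 hepatocyte markers chosen, 5 were on the array, and all of these were above background on every array. Of these, Tat was called higher with dexamethasone in wild type (1.07, adjusted p = 0.0101). Of the members, 34 were well above background on all 16 arrays, and none was saturated.

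The promoter sequences of members were read from RefSeq (GRCm38.p6), as windows of 250 bases before to 50 after the annotated start, for the 27 members whose window was searched. The core of the interferon-stimulated response element, GAAA and again GAAA after any 2 bases, or its reverse complement, was in 15 of the 27 members, against 3.99% of the 27025 genes with a window. A STAT dimer core, TTCNNNGAA, which reads the same on both strands, was in 9 members, against 9.55% of genes, and the core ACANNNTGT of the glucocorticoid response element, also the same on both strands, was in 2, Gbp3 and Oasl1, against 7.9% of genes. Stretches of 110 bases are printed for Isg15 (chr4:156200849-156200958, minus strand), Ifit1 (chr19:34640749-34640858, plus strand), Ifit3 (chr19:34583349-34583458, plus strand) and Rsad2 (chr12:26456503-26456612, minus strand), antiviral genes that were lower in treated wild-type liver, with the core or its reverse complement in capitals. The stretch of Oasl1 (chr5:114923000-114923109, plus strand) is printed because its capitals mark a match to ACANNNTGT in a gene that was also lower in treated wild-type liver.
Isg15, -140 to -31: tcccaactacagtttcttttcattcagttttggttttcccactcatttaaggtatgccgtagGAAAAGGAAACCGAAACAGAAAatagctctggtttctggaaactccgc
Ifit1, -140 to -31: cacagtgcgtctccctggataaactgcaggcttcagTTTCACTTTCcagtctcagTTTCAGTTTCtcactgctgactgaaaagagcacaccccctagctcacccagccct
Ifit3, -180 to -71: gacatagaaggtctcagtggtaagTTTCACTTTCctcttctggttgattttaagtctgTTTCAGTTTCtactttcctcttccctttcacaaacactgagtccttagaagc
Rsad2, -160 to -51: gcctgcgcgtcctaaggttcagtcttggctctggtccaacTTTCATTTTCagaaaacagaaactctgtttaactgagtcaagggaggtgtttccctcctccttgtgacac
Oasl1, -240 to -131: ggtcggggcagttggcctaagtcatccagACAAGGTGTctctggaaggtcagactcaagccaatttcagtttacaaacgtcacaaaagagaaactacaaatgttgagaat
In Isg15 the matches overlap and run on as 1 block, whereas Ifit1 and Ifit3 each hold a pair of separate matches and Rsad2 holds 1. Of the members with a searched window that were called lower in treated wild-type liver, 9 of 16 held this core, and of the other members with a searched window 6 of 11 did. A match describes the letters of the window and is not a measured binding site. Usp18, Mx1, Mx2, Oas2, Dhx58, Zbp1, Iigp1, Gbp6, Parp9 and Parp14 are not in the promoter table.

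In GR knockout liver dexamethasone lowered 2 members, the antiviral genes Ifit2 (2.07-fold, log2 -1.05, SE 0.18) and Oasl2 (2.18-fold, log2 -1.13, SE 0.20), with 4 arrays per group. With normexp background correction neither was called, with changes of -0.15 for Ifit2 (adjusted p = 0.848) and -0.74 for Oasl2 (adjusted p = 0.0725). By limma with Benjamini-Hochberg adjustment over all genes tested, these 2 of 37 members were called lower at an adjusted p under 0.05, against 2.31% of all genes, and 0 were called higher, against 1.21%. That share of members was 5.41%, against 3.53% of all genes called in either direction. Without single arrays the 2 calls stayed, while the share of all genes lay between 1.61% (without treated knockout array 3) and 5.11% (without untreated knockout array 1). The median change was -0.21 over the members and 0.00 over all genes, and 31 of 37 changes were negative. At an unadjusted p under 0.05 there were 13 lower and 1 higher, without a count over all genes at that threshold. Without untreated knockout array 3 the median was -0.36. In bulk liver, fewer cells of a type and less RNA per cell cannot be told apart.

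In wild-type liver, dexamethasone lowered most of the interferon-stimulated genes. The largest called falls were those of the antiviral gene Ifit1 (4.76-fold, log2 -2.25, SE 0.33), the nucleic acid sensor Zbp1 (4.09-fold, log2 -2.03, SE 0.35) and the GTPase gene Gbp6 (3.59-fold, log2 -1.85, SE 0.43), with 4 arrays per group. Usp18, which encodes the protease that removes ISG15 from proteins and dampens the type I receptor, was the only member called higher, 2.79-fold (log2 1.48, SE 0.24). By the same test 22 of 37 members were called lower, against 6.66% of all genes, and 1 was called higher, against 5.21%. Calls in either direction covered 62.2% of members and 11.9% of all genes. The median change was -1.02 over the members and -0.03 over all genes, and 34 of 37 members had a negative change. The 22 members called lower had a median change of -0.59 in knockout, where 21 of them were negative, and of -1.21 in wild type. They were picked by the wild-type values, which alone makes that side larger, so these medians are a description.

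**Figure D1:**
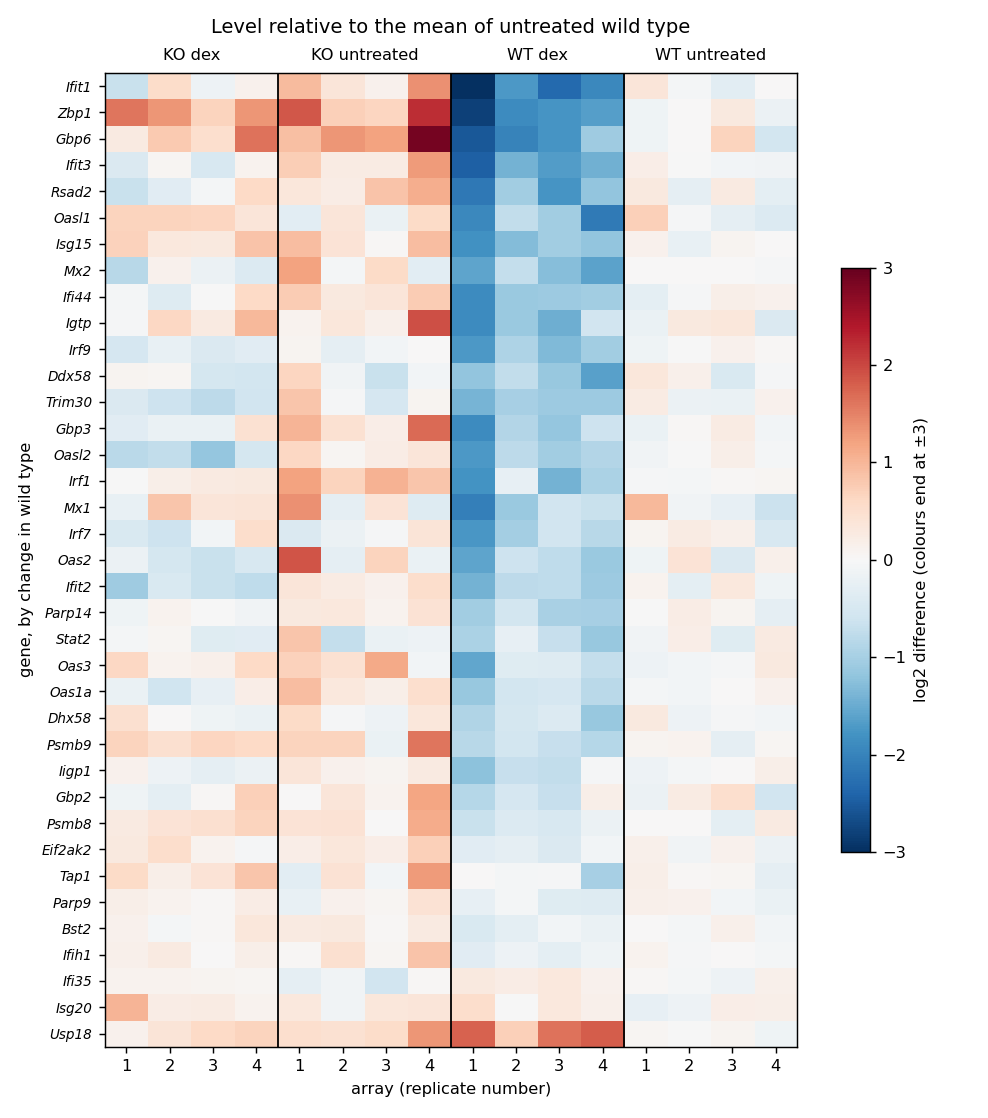
Log2 level of the 37 members (rows, ordered by the change in wild type) on each of the 16 arrays (columns, numbered by replicate within the group), relative to the mean of untreated wild type. Treated wild-type arrays are blue for most rows, array 1 most deeply, and Usp18 in the last row is red there.

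The test of the difference between the genotypes, which is the change in knockout minus the change in wild type, is positive where knockout liver fell less. It called 4 members higher, Isg15 (1.29, SE 0.31, adjusted p = 0.0265), Oasl1 (1.93, SE 0.45, adjusted p = 0.025), Zbp1 (1.91, SE 0.49, adjusted p = 0.0403) and Irf9 (0.94, SE 0.22, adjusted p = 0.0261), against 1.9% of all genes, and 1 lower, Usp18 (-1.75, SE 0.34, adjusted p = 0.0115), against 2.65%. In either direction that is 13.5% of members and 4.55% of all genes. The median difference was 0.57 over the members and 0.04 over all genes, and 33 of 37 were positive. At an unadjusted p under 0.05 there were 10 higher and 1 lower, without a count over all genes at that threshold. Of these 5 calls only that of Usp18 held without each single array in turn, and only that of Usp18 held with normexp background correction. The count of 5 members was 2 without treated knockout array 2, untreated knockout array 2, treated wild-type array 1, or untreated wild-type array 2 or 3, and it was 3 without treated knockout array 4, treated wild-type array 3 or untreated wild-type array 1. The median was 0.37 without untreated knockout array 3. For the other members, including most of those called in wild type only, a difference between the genotypes was not shown.

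**Figure D2:**
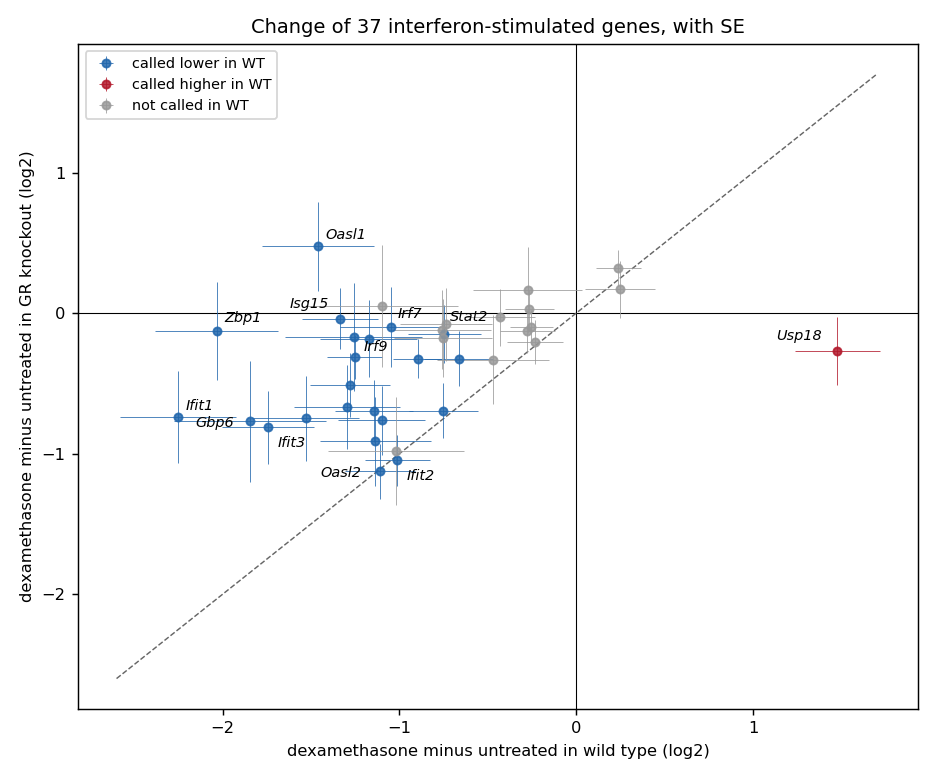
Change of each of the 37 members with dexamethasone in GR knockout (vertical axis) against wild type (horizontal axis), both log2 with standard errors, with the line of equal change dashed. Ifit2 and Oasl2 lie close to the line near -1, Isg15, Zbp1 and Oasl1 lie near or above 0 on the knockout axis, and Usp18 lies alone at the right.

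Under dexamethasone, most members were higher in knockout than in wild-type liver. Of the members, 23 were called higher in knockout, against 14% of all genes, and Usp18 was called lower, against 8.27%. Mx1 is counted among the 23, although it passed the filter only through treated knockout. In either direction that is 64.9% of members and 22.3% of all genes. The median difference was 0.88 over the members and 0.09 over all genes, and 35 of 37 were positive. The largest were Zbp1 (9.58-fold, log2 3.26, SE 0.35), Gbp6 (6.26-fold, log2 2.65, SE 0.43) and Ifit1 (4.65-fold, log2 2.22, SE 0.33). This comparison, the change in wild type and the difference between genotypes share the treated wild-type arrays. Hepatocyte markers were lower in treated knockout than in treated wild-type liver for 3 of 5, Apoa1 (-0.80), Cyp2e1 (-0.53) and the glucocorticoid-induced Tat (-1.46). Of 4 plasmacytoid dendritic cell markers tested, 2 were called in the members' direction, Tcf4 (0.46, adjusted p = 0.0282) and Cox6a2 (1.22, adjusted p = 0.0141). Siglech of that cell was above background on no array. Cd79a was the only 1 called of 6 B cell markers tested, in the members' direction (1.06, adjusted p = 0.0479). Cd79a is dim, well above background on only 2 of 4 treated wild-type arrays, and the 6 differences ranged from 0.14 to 1.06. Of 9 T and NK cell markers tested only Cd3e was called, in the opposite direction (-0.69, adjusted p = 0.0015). The median over these 9 was 0.51, in the members' direction, with a range of -0.69 to 0.92. The part of these cell types in the members' differences was not tested.

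Without treatment, none of the members differed between knockout and wild-type liver past the threshold. Of the 37 members 0 were called, against 2.81% of all genes by limma, 2.01% higher and 0.791% lower in knockout. At an unadjusted p under 0.05, 14 members were higher in knockout and 0 lower. The share of all genes at that unadjusted threshold was not counted, so these 14 are a description. The median difference was 0.36 over the members and 0.05 over all genes, and 32 of 37 were positive. In the same comparison 2 of 3 interferon ligand genes tested were called higher in knockout, Ifna1 (0.98, adjusted p = 0.0422) and the interferon lambda gene Il28b (0.95, adjusted p = 0.0345). Il28b is dim, with means of -3.82 in untreated knockout and -4.77 in untreated wild type. It was well above background on only 1 of 4 untreated wild-type arrays, so the size of its difference is limited by signal. Of the cell type markers, the plasmacytoid dendritic cell marker Klk1 was higher (1.00, adjusted p = 0.0164) and the hepatocyte gene Apoa1 lower in knockout (-0.88, adjusted p = 0.0203). Klk1 was the only 1 called of 4 plasmacytoid dendritic cell markers tested, whose differences ranged from -0.07 to 1.00. Siglech of that cell was above background on no array. Among the members, the nearest to the threshold were Zbp1 (1.35, adjusted p = 0.0527), Irf1 (0.94, adjusted p = 0.0536) and Gbp6 (1.57, adjusted p = 0.064). Without treated wild-type array 1, Zbp1 and Irf1 were called, without treated wild-type array 2 Irf1 was, without untreated knockout array 2 Zbp1 was, and without untreated knockout array 3 Zbp1 and the proteasome subunit gene Psmb9 were.

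The 4 treated wild-type arrays stood apart from the others over the members as a whole. Relative to the mean of untreated wild type, the median member lay at -0.02, 0.10, 0.02 and 0.22 on treated knockout arrays and at 0.56, 0.29, 0.12 and 0.54 on untreated knockout arrays. It lay at -1.41, -0.68, -0.75 and -0.94 on treated wild-type arrays, against -0.07 to 0.03 on untreated wild-type arrays. Treated wild-type array 1 was the lowest of all, and 5 of the 37 members were above their group mean on it. Without that array 16 members were called lower and Usp18 higher in wild type, and the median change was -0.83.

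**Figure D3:**
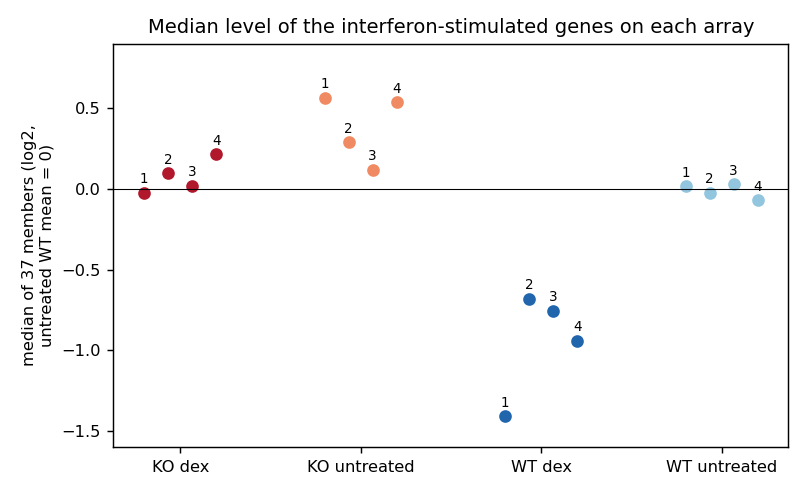
Median over the 37 members of the log2 level relative to the mean of untreated wild type, 1 point per array, numbered by replicate. The treated wild-type arrays lie between -1.41 and -0.68, below all arrays of the other groups, and the untreated knockout arrays lie between 0.12 and 0.56.

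Isg15 encodes a ubiquitin-like protein that is joined to other proteins during an interferon response, and Usp18 the protease that takes it off again. Isg15 was at 2.37, 1.99, 1.99 and 2.53 on treated and 2.60, 2.10, 1.73 and 2.61 on untreated knockout arrays. The levels in wild type were -0.13, 0.38, 0.64 and 0.50 on treated arrays and 1.82, 1.46, 1.76 and 1.69 on untreated arrays. All treated wild-type arrays lay below every other array, while the 2 knockout groups overlapped. Its change was -0.04 in knockout (SE 0.22, adjusted p = 0.952), and in wild type it fell 2.52-fold (log2 -1.34, SE 0.22, adjusted p = 0.0017). Its probe is placed on chr17:44534906-44534965 (mm7) by the array's annotation, whereas RefSeq places the gene on chromosome 4, and the probe was assigned by its accession.

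Usp18 rose in wild type, where the other called members fell. Its only probe on the array lies at chr6:121295796-121295855 (mm7), so no second probe could be set beside it. It was at 0.91, 1.18, 1.37 and 1.46 on treated and 1.28, 1.25, 1.34 and 2.11 on untreated knockout arrays. Wild-type levels were 2.55, 1.50, 2.40 and 2.60 on treated arrays and 0.85, 0.77, 0.87 and 0.65 on untreated arrays. Every treated wild-type array was above every untreated wild-type and every treated knockout array, array 2 only just above the highest treated knockout array, and the knockout groups overlapped. Every untreated knockout array was also above every untreated wild-type array for Usp18, a difference of 0.71 that was not called (adjusted p = 0.125). Its change was -0.27 in knockout (SE 0.24, adjusted p = 0.645), and in wild type it rose (log2 1.48, adjusted p = 0.0018). Treated knockout liver was 2.05-fold lower than treated wild-type liver (log2 -1.03, adjusted p = 0.00761).

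Among the antiviral effectors, 6 of 11 measured were called lower in treated wild-type liver: Ifit1, Ifit2, Ifit3, Rsad2, Mx2 and Ifi44. The IFIT proteins bind foreign RNA and hinder its translation. Ifit1 (probe at chr19:34350610-34350669, mm7) was at -1.68, -0.45, -1.17 and -0.87 on treated and -0.07, -0.64, -0.89 and 0.37 on untreated knockout arrays. In wild type it was at -4.02, -2.74, -3.36 and -2.94 on treated arrays and -0.64, -1.08, -1.32 and -1.00 on untreated arrays. All 4 treated wild-type arrays were below all others, and the knockout groups overlapped. Its change in knockout was -0.74 (adjusted p = 0.268), its fall in wild type had an adjusted p of 0.000906, and the difference between genotypes was 1.51 (SE 0.46, adjusted p = 0.0823).

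Ifit3 (probe at chr19:34289919-34289978, mm7) was at 0.99, 1.49, 0.94 and 1.53 on treated and 2.15, 1.68, 1.66 and 2.70 on untreated knockout arrays. Wild-type livers had levels of -1.03, 0.01, -0.24 and -0.02 on treated arrays and 1.63, 1.40, 1.35 and 1.31 on untreated arrays. The treated arrays were below the untreated ones in both genotypes. Its change of -0.81 in knockout was not called (adjusted p = 0.107), its fall in wild type was (log2 -1.74, SE 0.26, adjusted p = 0.0011), and the difference of 0.93 was not (SE 0.37, adjusted p = 0.201). A second Ifit3 probe, of another transcript, gave -1.42 in wild type and a difference of 0.96. Binding of these probes to near-identical neighbours such as Ifit3b was not tested.

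Ifit2 fell in both genotypes. It was at -4.57, -3.96, -4.18 and -4.27 on treated and -3.16, -3.27, -3.39 and -2.98 on untreated knockout arrays. The levels in wild type were -4.93, -4.30, -4.27 and -4.61 on treated arrays and -3.41, -3.81, -3.19 and -3.64 on untreated arrays. In each genotype all treated arrays were below all untreated ones, and the treated groups of the 2 genotypes overlapped. Ifit2 fell 2.07-fold in knockout (log2 -1.05, SE 0.18, adjusted p = 0.00715) and 2.02-fold in wild type (log2 -1.01, SE 0.18, adjusted p = 0.00308). The difference between genotypes was -0.04, with a 95% interval of -0.59 to 0.52. Ifit2 is dim, and with normexp background correction its changes were -0.15 in knockout and -0.29 in wild type and were not called.

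Rsad2, which encodes viperin, an enzyme that blocks viral RNA synthesis, was at -1.20, -0.86, -0.58 and 0.08 on treated and -0.18, -0.29, 0.35 and 0.56 on untreated knockout arrays. Wild-type levels were -2.66, -1.56, -2.28 and -1.70 on treated arrays and -0.22, -0.80, -0.26 and -0.81 on untreated arrays. The treated wild-type arrays were below all others. The change of Rsad2 was -0.75 in knockout (SE 0.30, adjusted p = 0.215), and in wild type it fell 2.89-fold (log2 -1.53, SE 0.30, adjusted p = 0.00511).

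Of the other effectors, Mx2 had a change of -0.67 in knockout, not called, and fell in wild type (log2 -1.30), and Ifi44 had one of -0.51, not called, and fell in wild type (log2 -1.28). The tetherin gene Bst2 (-0.25), the kinase PKR gene Eif2ak2 (-0.28), Ifi35 (0.24) and the exonuclease gene Isg20 (0.25) were not called in wild type. Mx1, the antiviral GTPase, was well above background on 3 of 4 treated knockout arrays, against 0 of 4 treated wild-type and 1 of 4 untreated wild-type arrays, so no fold is given for dexamethasone in wild type. It was at least 1.22-fold higher in treated knockout than in treated wild-type liver (adjusted p = 0.0282). That bound sets the mean of the bright arrays against the lowest signals well above background on the dim ones. Mx1 passed the filter only through treated knockout, the group where it was then called higher, so this call is a description. The call was lost without any one of 5 arrays, with quantile normalization and with normexp.

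**Figure D4:**
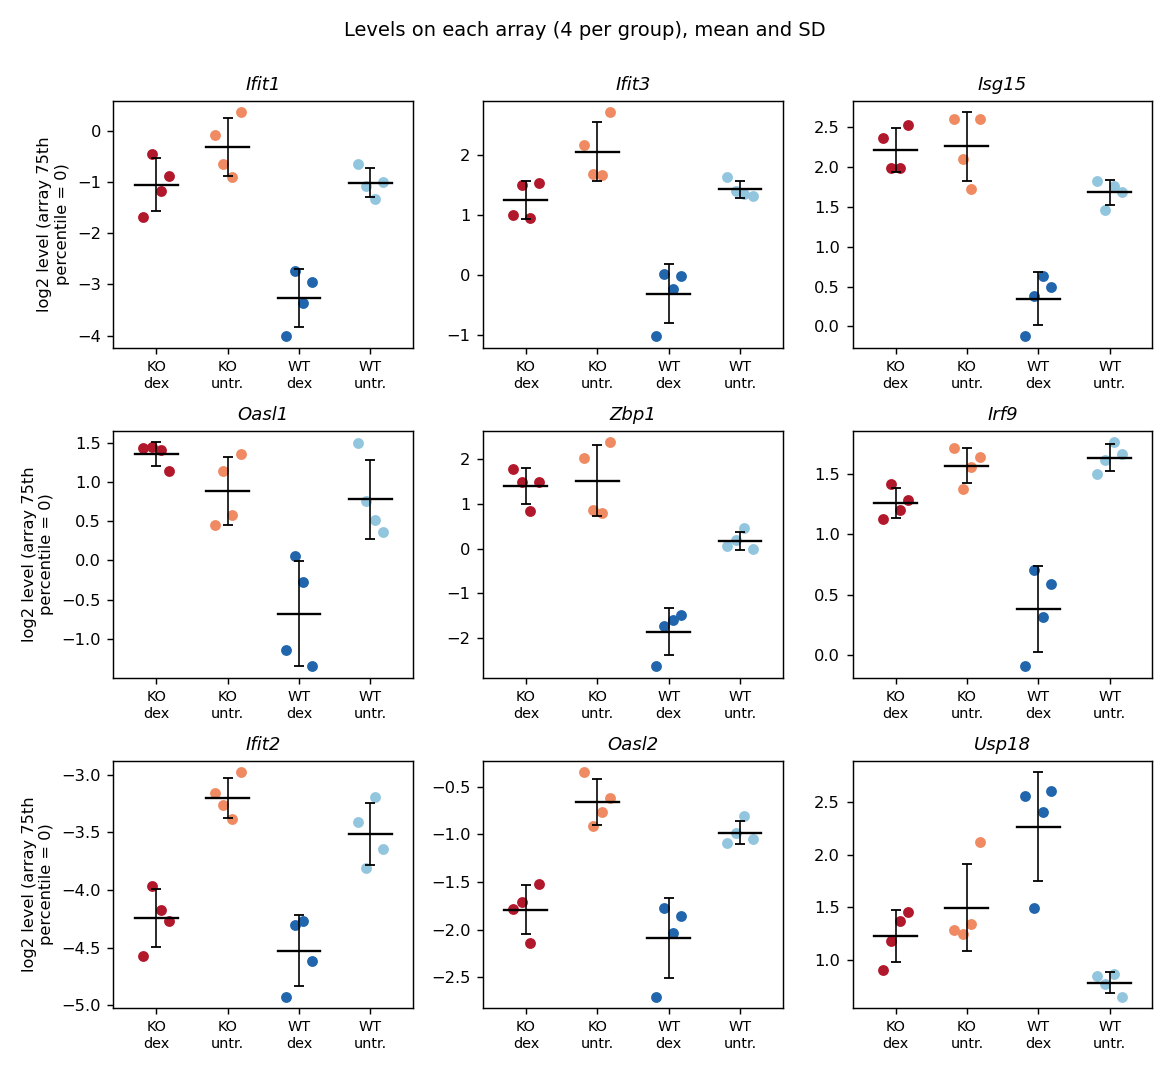
Log2 level (array 75th percentile at 0) of 9 members on each array, with the group mean and SD (n = 4); the vertical scale differs between panels. All 4 treated wild-type arrays are lowest for Ifit1, Ifit3, Isg15, Oasl1, Zbp1 and Irf9, both treated groups are low for Ifit2 and Oasl2, and the treated wild-type group is highest for Usp18.

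In the 2-5A synthetase family, whose OAS enzymes make the activator of RNase L, 3 of 5 members were called lower in wild type: Oas1a, Oasl1 and Oasl2. Oasl1 and Oasl2 are relatives of these enzymes, and mouse OASL1 is known to restrain translation of Irf7. Oasl1 (probe at chr5:114158380-114158439, mm7) was at 1.44, 1.44, 1.42 and 1.14 on treated and 0.46, 1.14, 0.58 and 1.36 on untreated knockout arrays. In wild type it was at -1.15, 0.05, -0.27 and -1.35 on treated arrays and 1.50, 0.75, 0.51 and 0.36 on untreated arrays. The treated wild-type arrays were below all others, and 3 of the 4 treated knockout arrays were above every untreated knockout array. Oasl1 had a change of 0.47 in knockout (SE 0.32, adjusted p = 0.501), and in wild type it fell 2.75-fold (log2 -1.46, SE 0.32, adjusted p = 0.009).

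Oasl2 (probe at chr5:114132992-114133051, mm7) was at -1.78, -1.71, -2.14 and -1.52 on treated and -0.35, -0.91, -0.77 and -0.62 on untreated knockout arrays. Wild-type livers had levels of -2.70, -1.78, -2.03 and -1.86 on treated arrays and -1.09, -0.99, -0.81 and -1.04 on untreated arrays. As with Ifit2, treated and untreated arrays did not overlap in either genotype, and the treated groups overlapped. Oasl2 fell 2.18-fold in knockout (log2 -1.13, SE 0.20, adjusted p = 0.00725) and 2.16-fold in wild type (log2 -1.11, SE 0.20, adjusted p = 0.00294). The difference was -0.02, with a 95% interval of -0.61 to 0.58. With normexp the change in knockout was -0.74 and was not called. Oas1a had a change of -0.69 in knockout (adjusted p = 0.0644) and a called fall of 0.75 in wild type (log2 -0.75), and Oas2 (-0.98 in knockout, -1.02 in wild type) was called in neither.

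Of the 4 nucleic acid sensors, Zbp1, the RIG-I gene Ddx58 and the LGP2 gene Dhx58 were called lower in wild type, and the MDA5 gene Ifih1 was not (-0.23). Zbp1, a sensor of Z-form nucleic acid that can start necroptosis (probe at chr2:172950998-172951057, mm7), was at 1.77, 1.49, 0.83 and 1.49 on treated and 2.03, 0.87, 0.81 and 2.38 on untreated knockout arrays. The levels in wild type were -2.64, -1.72, -1.60 and -1.49 on treated arrays and 0.05, 0.18, 0.46 and -0.01 on untreated arrays. All 8 knockout arrays were above all wild-type arrays, and the treated wild-type arrays were the lowest. The change in knockout was -0.13 (SE 0.35, adjusted p = 0.901), and the fall in wild type had an adjusted p of 0.00232. Its difference between genotypes lost its call without any one of 11 arrays, and its size ranged between 1.65 and 2.19 over all 16 fits without 1 array. With the replicate number as a block its adjusted p was 0.0503. Ddx58 had a change of -0.18 in knockout and fell by 1.17 on the log2 scale in wild type. Dhx58 had one of -0.15 in knockout and fell by 0.75 in wild type.

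Irf9, Stat2 and Irf7 are factors of the pathway itself. Irf9, the DNA-binding part of the complex with STAT2 (probe at chr14:50476767-50476826, mm7), was at 1.12, 1.42, 1.20 and 1.29 on treated and 1.71, 1.37, 1.55 and 1.64 on untreated knockout arrays. Wild-type levels were -0.09, 0.71, 0.32 and 0.59 on treated arrays and 1.49, 1.62, 1.76 and 1.66 on untreated arrays. All 4 treated wild-type arrays were below all others, and the knockout groups overlapped slightly. Irf9 had a change of -0.31 in knockout (SE 0.16, adjusted p = 0.342), and in wild type it fell 2.38-fold (log2 -1.25, SE 0.16, adjusted p = 0.000385). A second Irf9 probe gave -0.93 in wild type and a difference between genotypes of 0.55, against 0.94 for the chosen probe. With the mean of all kept probes the difference for Irf9 was not called.

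Irf7, which amplifies interferon production, was at -0.03, -0.18, 0.35 and 0.95 on treated and -0.01, 0.26, 0.41 and 0.82 on untreated knockout arrays. In wild type it was at -1.32, -0.58, -0.15 and -0.41 on treated arrays and 0.51, 0.68, 0.60 and -0.05 on untreated arrays. All treated wild-type arrays were below the untreated ones, and the knockout groups overlapped. Its change in knockout was -0.10 (SE 0.29), and its fall in wild type (log2 -1.05, SE 0.29, adjusted p = 0.0275) lost its call without treated wild-type array 1 or 2 or untreated wild-type array 1, 2 or 3, with adjusted p up to 0.0944. Stat2 was at 2.05, 2.17, 1.75 and 1.78 on treated and 2.94, 1.39, 1.92 and 1.97 on untreated knockout arrays. Wild-type livers had levels of 1.17, 1.87, 1.42 and 0.97 on treated arrays and 2.02, 2.30, 1.76 and 2.38 on untreated arrays, so the wild-type groups overlapped. Its change was -0.12 in knockout (SE 0.28) and -0.76 in wild type (SE 0.28, adjusted p = 0.0928). Irf1, a factor induced by interferon gamma, had a change of -0.76 in knockout (adjusted p = 0.106) and fell by 1.10 in wild type on the log2 scale (adjusted p = 0.01).

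The GTPases attack the vacuoles of intracellular parasites, and 4 of 5 were called lower in wild type: Igtp (log2 -1.26), Iigp1 (log2 -0.67), Gbp3 (log2 -1.14) and Gbp6. Gbp2 was not (-0.47). In knockout Igtp changed by -0.17, Iigp1 by -0.32 and Gbp3 by -0.91, none called, and a difference between genotypes was called for none of them. Gbp6 (probe at chr5:104494632-104494692, mm7) was at -1.03, -0.51, -0.79 and 0.32 on treated and -0.41, 0.01, -0.10 and 1.57 on untreated knockout arrays. The levels in wild type were -3.85, -3.30, -3.07 and -2.38 on treated arrays and -1.42, -1.29, -0.63 and -1.86 on untreated arrays. The treated wild-type arrays were below all others, and every untreated knockout array was above every untreated wild-type array. The change in knockout was -0.77 (SE 0.43, adjusted p = 0.403), the fall in wild type had an adjusted p of 0.013, and the difference was 1.08 (SE 0.61, adjusted p = 0.426). With normexp its change in wild type was -1.13. The calls of Igtp, Iigp1 and Gbp3 were lost without any one of 9, 7 and 4 arrays in that order.

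Of the remaining members, the ADP-ribosyltransferase gene Parp14 (log2 -0.90) and Trim30 (log2 -1.14), known in mouse as a restraint on Toll-like receptor signalling, fell in wild type. Parp9 (-0.26) was not called. In knockout Parp14 changed by -0.32 and Trim30 by -0.69, neither called, and for neither was a difference between genotypes called. The antigen processing genes Tap1, the peptide transporter, and Psmb8 and Psmb9, the immunoproteasome subunits, were not called in wild type (0 of 3, changes between -0.74 and -0.28). Under dexamethasone Psmb8 was 1.85-fold and Psmb9 2.53-fold higher in knockout than in wild type (adjusted p = 0.00597 and 0.00256). Over all 23 calls of the wild-type comparison, 17 held without each single array, and 6, those of Oas1a, Dhx58, Irf7, Igtp, Iigp1 and Gbp3, did not. For 10 members a further probe was above background on all arrays, and all 10 had the sign of the chosen probe in wild type.

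Of 36 pathway genes listed outside the members, 35 were on the array and 31 were tested, with a median change of 0.00 in knockout and -0.18 in wild type. In knockout 0 were called by limma, and in wild type 3 were called lower and 3 higher. The difference between genotypes was called for 1 of the 31, Irf5 (1.05, adjusted p = 0.0399). In treated liver 4 were called higher and 3 lower in knockout than in wild type, and in untreated liver 2 were called higher, the ligand genes given above. The feedback inhibitor Socs1 (log2 -1.35) and the factor Irf5 (log2 -0.98) fell in wild type, as did the kinase gene Tyk2. The receptor gene Tlr7 (log2 0.96), the Toll-like receptor adaptor gene Ticam1 (log2 0.94) and the kinase gene Tbk1 rose there. In knockout the changes, none called, were -1.06 for Socs1 (adjusted p = 0.0624), 0.07 for Irf5 and -0.005 for Tyk2. They were 0.815 for Tlr7 (adjusted p = 0.126), 0.40 for Ticam1 and 0.145 for Tbk1. None of the 5 receptor genes tested was called with dexamethasone in either genotype, and Il10rb was higher in treated knockout than in treated wild-type liver (0.75, adjusted p = 0.0315). Ifnb1 and Ifna2 were well above background on 0 arrays, and Ifna1, on all of them, had a change of 0.63 in wild type (adjusted p = 0.104).

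A further 36 tested interferon-regulated genes outside the members gave 4 lower and 0 higher calls in knockout, with a median of -0.10, and 12 lower and 2 higher calls in wild type, with a median of -0.36. The chemokine gene Cxcl10 had a change of -1.58 in knockout (adjusted p = 0.0745) and the largest called fall of these in wild type (log2 -2.63, SE 0.46). The nucleotide kinase gene Cmpk2, a neighbour of Rsad2, had a change of -0.59 in knockout and fell by 1.91 in wild type (SE 0.21), and its difference between genotypes was called (1.32, SE 0.30, adjusted p = 0.0235). The other difference called among the 36 was that of the RNA-editing enzyme gene Adar (0.80, SE 0.17, adjusted p = 0.0156). In treated liver 13 of the 36 were called higher and 1 lower in knockout than in wild type, and in untreated liver 0 were called by limma. The receptor transporter gene Rtp4 fell in knockout (log2 -0.68, adjusted p = 0.0472) and in wild type (log2 -1.24). The GTPase gene Irgm2 had a change of -0.65 in knockout, not called, and fell in wild type (log2 -1.65). Gbp4, Ifi203 and Sp100 were the others called lower in knockout. Ifitm2 and Irgm1 were called higher in wild type.

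Immune cell markers were set beside the members. Of 11 Kupffer cell and macrophage markers, 0 were called in any comparison by limma. Of 6 markers of sinusoidal endothelium, Lyve1 was called higher and Kdr lower with dexamethasone in both genotypes, and Fcgr2b lower in wild type. The summed linear level of the 11 Kupffer cell and macrophage markers was 64.4 to 115 on treated and 83.8 to 161 on untreated knockout arrays. In wild type it was 45.3 to 77.4 on treated and 68 to 91.2 on untreated arrays, in units of the array's 75th percentile. The difference of knockout minus wild type was positive for all 11 of these markers, with a median of 0.33 in treated and 0.45 in untreated liver. The members' medians were 0.88 and 0.36. Of 6 B cell markers tested, Cd79b, Ms4a1 and Fcmr were called lower with dexamethasone in both genotypes, with Cd79b at -2.11 in knockout and -1.74 in wild type. The summed level of the 7 B cell markers on the array was 0.571 to 0.699 on treated and 1.03 to 2.68 on untreated knockout arrays, against 0.373 to 0.496 on treated and 0.862 to 1.02 on untreated wild-type arrays. Of 9 T and NK cell markers tested, 1 was called lower in each genotype, Cd3e in knockout (-0.92) and Cd3g in wild type (-0.77). Cd3e had a change of 0.19 in wild type, and its difference between genotypes was called (-1.10, adjusted p = 0.00384), opposite in sign to those of Isg15, Oasl1, Zbp1 and Irf9. It was the only 1 called of these 9 markers, whose median difference was 0.07, with a range of -1.10 to 0.37. Of 3 neutrophil markers tested, S100a9 was called lower in wild type, and the defining gene Elane was above background on 0 arrays, as was Siglech of the plasmacytoid dendritic cell, none of whose 4 tested markers was called with dexamethasone in either genotype, though 2 were called in treated and 1 in untreated knockout against wild type, as given above. The part of these cells in the members' changes was not tested.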

How the data were processed

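Scanner files of 16 arrays were used. The deposited processed signal of each spot is an intensity with background already subtracted, and the submitters' processing notes name Agilent Feature Extraction 9.5 as its source. Mean and local background signals are also intensity values per the file headers, and flags mark spots as above background, saturated or outlying (unit other), per the file headers. A deposited series table held the same values (largest difference 0). No scaling between arrays had been applied.

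Control spots (1639 of 45018) were left out, 2121 outlying spots (0.306%) were set missing, and replicate spots were averaged per probe. Each array's 75th percentile was then subtracted from its log2 signals. Of 41174 probes, 22951 were named by RefSeq accession, 9768 by symbol or synonym and 8455 by the array's own identifier. The brightest probe of each gene was kept if well above background on at least 3 of 4 arrays of any group. Limma 3.58.1 in R 4.3.3 fitted 4 group means in 1 model (residual degrees of freedom 12). Tests were two-sided, adjusted by Benjamini-Hochberg over 18462 genes, with calls at 0.05. On simulated data for the wild-type comparison with 18462 genes, 58% of genes with a log2 change of 1 and 87% with a change of 2 were recovered. Far fewer genes were changed in the simulation than were called in the data, so these shares do not measure the power of the reported test. The number of arrays limits the precision.

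A gene of the listed pathway is not reported here. Members, lists, tests and alternatives were chosen with earlier results of these data known. Values on each array are given for Usp18, the members called in the difference between genotypes, the largest called falls and rises of each comparison, and Stat2, Irf7 and Irf9. Same-numbered arrays of different groups were checked for pairing by correlating their deviations from the group means, and no block entered the reported fit. The alternatives comprised quantile normalization, normexp background correction (offset 50), no filter or a stricter one for dim probes, keeping outlying spots, the mean of all kept probes, array weights, a variance trend with robust fitting, replicate number as a block, only the groups compared, the series table, and leaving out each array. Leaving out both arrays of low signal was chosen after seeing the data. Promoter sequences and gene symbols came from RefSeq (GRCm38.p6), and probe positions are those of the array annotation (mm7). Figures used matplotlib 3.10.9 in Python 3.11.15.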

Additional observations from a re-analysis of the deposited data

Results flagged for a closer look

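Usp18 on untreated knockout array 4 was at 2.11, against 1.25 to 1.34 on the other arrays of that group, and Oasl1 on treated knockout array 4 was at 1.14, against 1.42 to 1.44, each a gap too wide for 4 arrays by Dixon's test at the 95% level. Of 56 groups examined, 2 stood out in this way, and chance gives about 1 in 20. The dexamethasone change differed between the genotypes by limma for 5 members, as knockout minus wild type: it was 1.29 for Isg15, 1.93 for Oasl1, 1.91 for Zbp1, 0.94 for Irf9 and -1.75 for Usp18.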

How the results depend on the processing

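No called change of a named member changed sign under any alternative run, and 23 of 29 such calls held without each single array. Without 1 array at a time, members called numbered 2 to 3 for dexamethasone in knockout, 17 to 25 in wild type, 2 to 6 for the difference between genotypes, and 17 to 29 treated and 0 to 2 untreated for knockout against wild type. The medians spanned -0.36 to -0.16, -1.10 to -0.83, 0.37 to 0.67, 0.80 to 0.90 and 0.25 to 0.43 in the same order. For dexamethasone in knockout, 0 members were called with normexp and 4 with array weights. For the difference between genotypes, 1 was called with normexp (median 0.42), 2 with no filter, which tested more genes, and 12 with array weights. For untreated knockout against wild type, 1 was called with quantile normalization (Zbp1), 2 with a trended robust variance (Zbp1 and Irf1), 2 with array weights (Ifih1 and Gbp6) and 1 with only the groups compared (Irf1). The median for treated knockout against wild type was 0.68 with normexp. The causes were not tested. Normexp with its offset shrinks differences of dim probes by construction, and with it Ifit1 changed by -1.47 and Gbp6 by -1.13 in wild type. The differences between genotypes of Isg15, Irf9, Oasl1 and Zbp1 lost their calls with normexp, at 1.05, 0.77, 1.66 and 1.43. The mean log2 levels of these members over all arrays were 1.63, 1.21, 0.585 and 0.306 in that order. Why their calls were lost was not tested. Usp18 kept each of its calls under every alternative.

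With replicate number as a block, 1 member (Gbp6) was called in untreated knockout against wild type, and Zbp1 lost its difference between genotypes (adjusted p = 0.0503). Deviations of same-numbered arrays correlated between -0.184 and 0.348 (median 0.076), and 10 of 24 pairs passed 0.1, so the numbers were not taken to pair the arrays. Without both arrays of low signal, the counts were 2, 24, 5, 29 and 0 in the order above.

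Counts over all genes moved more. For dexamethasone in knockout they were 651 as reported, 47 with normexp, 1811 with array weights and 1089 without both arrays of low signal, with 1088 after quantile normalization, 398 with no filter and 130 with only the groups compared. In wild type they were 2190, 1195, 5014 and 3400 under the first 4 of these. For the difference they were 840, 107, 2732 and 1518, with 547 under no filter. For treated knockout against wild type they were 4114, 2362 with normexp and 6679 with array weights, and for untreated 518, 85 and 1550, with 261 under no filter and 80 with only the groups compared. Without 1 array at a time they were 297 to 943 for dexamethasone in knockout, 1206 to 3287 in wild type, 476 to 1494 for the difference, 2910 to 5555 for treated and 140 to 619 for untreated knockout against wild type. Counts more than 1.5 times lower came in knockout without treated array 2 (358), 3 (297) or 4 (368) or untreated array 2 (376), and in wild type without treated array 1 (1228) or untreated array 2 (1206). For the difference they came without treated knockout array 2 (543) or 3 (503), treated wild-type array 3 (545) or untreated wild-type array 2 (476). For untreated knockout against wild type they came without untreated knockout array 2 (291) or 4 (325) or untreated wild-type array 1 (309), 2 (140) or 3 (286). Without untreated knockout array 1 the counts were 943 in knockout, 3287 in wild type and 1494 for the difference. Members close to background, Mx1 above all, are limited by signal.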
